A study of Homo sapiens with 8 samples.

Results

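The transcripts of 10 genes for splicing regulators, SRSF1, SRSF2, SRSF3, SRSF4, SRSF5, SRSF6, SRSF7, SRSF11, TRA2A and TRA2B, were examined for binding by RBFOX2. A peak was assigned to one of these genes when its midpoint lay in the RefSeq span of the gene on GRCh38 and on the strand of the gene. This gave 1032 of the 1118316 peaks that the authors called in 4 libraries, a mean of 258.0 ± 3.37 (SD, n = 4) per library. RBFOX2 was immunoprecipitated (IP) from HEK293T cells, a human embryonic kidney line, after ultraviolet crosslinking, and each of the 4 IP libraries was set by the authors against an input library made from 2% of the same sample (eCLIP). All samples had the same crosslinking (254 nm, 400 mJ per square centimetre), and the labels list no other treatment. The labels do not say whether the 4 samples came from separate cultures, so p-values measure the spread between these samples, which may be technical. The peak lists hold no expression levels, so the labelled cell type was not checked against markers.

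SR proteins carry RNA recognition motifs and a region rich in arginine and serine, and most of them bind enhancer sequences in exons and recruit the splicing machinery. TRA2A and TRA2B are related proteins that bind purine-rich exonic enhancers. Many genes of this family control their own output through alternative exons that send the transcript to decay. RBFOX2 is a splicing regulator that recognises GCAUG in RNA, usually in introns beside the exons it controls. Whether it contacts the transcripts of other splicing regulators is what the peaks in these genes bear on.

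Each peak has a pair of values deposited by the authors, read here as a p-value on the −log10 scale and an IP-to-input fold on the log2 scale. Enriched peaks were those at or above 3 on both scales. A fold is relative to input and is not a level of RNA. Enrichment was concentrated in SRSF6 and SRSF1: of the 27 enriched peaks in the 10 genes, 19 lay in SRSF6, 6 in SRSF1 and 2 in SRSF11, and the 7 other genes had none. The libraries held 12, 7, 4 and 4 of these peaks in replicates 1 to 4. Replicate 1 had the most, and replicates 3 and 4 the fewest. The share of enriched peaks was 2.62% ± 1.48 (SD, n = 4), and over all called peaks it was 0.818%. By the −log10 p alone, with no limit on the fold, 50 peaks in the 10 genes reached 3, which was 4.84% ± 0.974, with 1.11% over all called peaks. They lay in SRSF6 (31), SRSF1 (11), SRSF11 (7) and SRSF4 (1). Without SRSF6 the mean fell from 6.75 to 2 enriched peaks per library, so the share of the group rests mainly on that gene. It is not a trait of the 10 genes as a group.

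The folds of all called peaks in the SR and TRA2 genes, enriched ones included, were also compared with the whole lists. Of the peaks in the whole lists, 41.8% ± 0.955 (SD, n = 4) sat at the single commonest fold of their library, near a log2 fold of 0, and 10.2% ± 1.48 of the peaks in the 10 genes did. Among the remaining peaks, a log2 fold above 0.5 was found for 34.4% ± 2.45 in the 10 genes and for 54.0% ± 1.49 in the lists. In each replicate the share in these genes was the lower one, at 32.3%, 37.0%, 32.3% and 36.0% against 55.7%, 54.1%, 52.1% and 54.1%. A log2 fold under −0.5 was found for 42.5% ± 5.20 and 40.5% ± 1.43 of these peaks, so among them the low side did not separate. Counted over all peaks, those at the commonest fold included, the share above 0.5 was 30.9% ± 2.38 in the 10 genes and 31.4% ± 1.35 in the lists. By that count the 10 genes were lower in replicates 1 and 3 and higher in replicates 2 and 4. The share under −0.5 over all peaks was 38.1% ± 4.10 in the 10 genes, and 23.6% in the lists. It was higher in the 10 genes in each replicate, at 44.0%, 35.4%, 37.8% and 35.1% against 23.1%, 23.5%, 24.3% and 23.4%. Which side differed thus depended on whether peaks at the commonest fold were counted. The median log2 fold of all peaks in the 10 genes was −0.19, 0.0014, −0.17 and −0.00050 in replicates 1 to 4. In the whole lists it was −0.00087, 0.0014, 0.00077 and −0.00050.

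**Figure D1:**
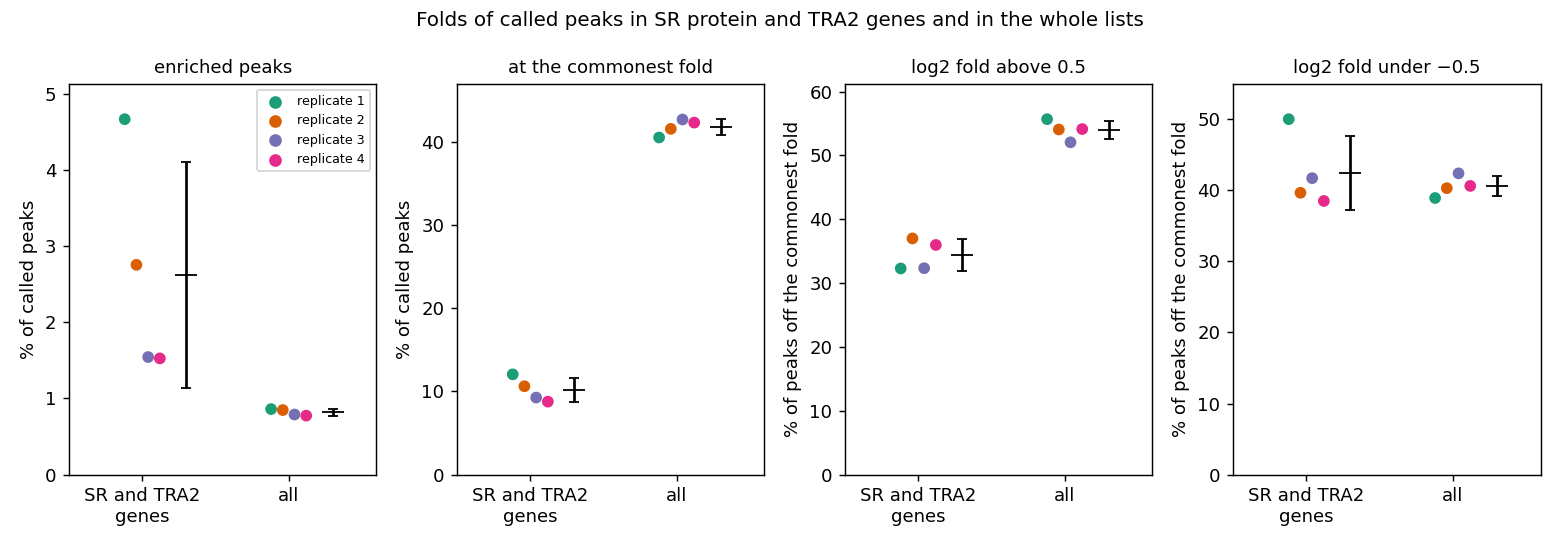
Share of called peaks that were enriched or sat at the commonest fold of the library, and share of the remaining peaks with a log2 fold above 0.5 or under −0.5. Points are replicates, bars are mean and SD (n = 4). The SR and TRA2 genes had a smaller share of peaks at the commonest fold in each replicate. Of the remaining peaks, a lower share was above 0.5 in each replicate, while the shares under −0.5 overlapped. Over all peaks, not drawn here, the share under −0.5 was higher in the SR and TRA2 genes in each replicate.

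To compare folds between replicates, called peaks of the same strand that shared 1 nt or more were merged into regions. The 10 genes held 332 such regions, of which 128 (38.6%) had a called peak in all 4 replicates. In the whole lists 49493 of 701159 regions (7.06%) did. For each of these regions the log2 fold of the peak with the highest −log10 p was taken per replicate, and the mean was tested against 0 with limma across all 49493 regions. Peaks that tied on the −log10 p were represented by the highest fold. Both this rule and the choice of the peak with the highest −log10 p lean toward higher folds. Regions are called above or below 0 here where the Benjamini-Hochberg adjusted p was at most 0.05. In the 10 genes 15 of 128 regions (11.7%) were above 0, with 21.1% over all regions tested, and 5 (3.91%) were below 0, with 1.81% over all. With the mean fold of each region's peaks instead, 12 were above 0 and 7 below in the 10 genes, and 9403 and 897 over all. The regions had a median mean log2 fold of 0.11 in the 10 genes and of 0.50 over all regions. The regions above 0 lay in SRSF11 (5), SRSF6 (3), SRSF1 (3), TRA2B (2), SRSF4 (1) and TRA2A (1). Those below 0 lay in SRSF4 (2), SRSF1 (1), SRSF2 (1) and TRA2A (1). SRSF3, SRSF5 and SRSF7 had 8 tested regions each and no call. Most of these calls needed all 4 replicates. Without replicate 1, 2 or 4 no region of the 10 genes passed above 0, and without replicate 3 there were 5. Below 0 there were 0 without replicate 1 or 4, 2 without replicate 2 and 1 without replicate 3. At an unadjusted p under 0.05, these fits had 19 to 25 regions above 0 and 11 to 17 below. Against a log2 fold of 1 rather than 0, 5 regions passed in limma, 3 in SRSF6 and 2 in SRSF1. With one replicate left out, the smallest adjusted p over all regions was between 0.0484 and 0.0507 in limma.

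**Figure D2:**
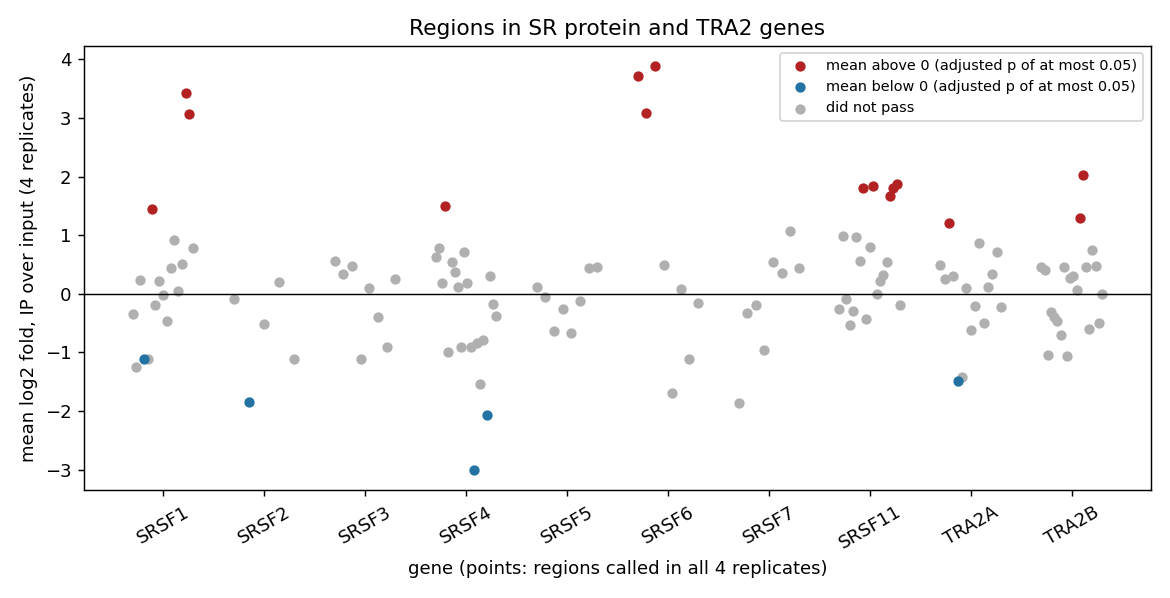
Mean log2 fold of IP over input (n = 4 replicates) for the 128 regions of the SR protein and TRA2 genes that were called in all 4 replicates, in genomic order within each gene. The 5 regions with a mean of at least 3 are in SRSF6 and SRSF1.

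SRSF6, also known as SRp55, is a classical SR protein whose gene spans 6348 nt on the plus strand of chromosome 20, from 43457896 to 43464243. It carried the strongest enrichment of the 10 genes, in a block that began 610 nt after the start of the span and ended at 1284 nt. In this gene 16, 18, 16 and 20 peaks were called in replicates 1 to 4, and 8, 6, 2 and 3 of them were enriched. The highest −log10 p was 34.6, 30.3, 30.7 and 28.0. Over all protein-coding genes with a called peak, 24 of 12922 had an enriched peak with a −log10 p at least as high as the highest in SRSF6, itself included. By number of enriched peaks, 114 genes had at least as many as SRSF6, itself included.

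The block held 3 regions, and each was above 0. The first (chromosome 20, 43458506 to 43458785) had a log2 fold of 3.79, 3.92, 4.32 and 2.80 in replicates 1 to 4, with a mean of 3.71 ± 0.65 (SD, n = 4; SE 0.33; limma adjusted p = 0.00487). The second (43458841 to 43458989) had 3.65, 3.13, 2.65 and 2.93, with a mean of 3.09 ± 0.42 (SE 0.27; limma adjusted p = 0.00480). The third (43459032 to 43459180) had 4.23, 3.84, 2.76 and 4.70, with a mean of 3.88 ± 0.83 (SE 0.38; limma adjusted p = 0.00566). No replicate was lowest in all 3: replicate 4 was lowest in the first and highest in the third, and replicate 3 the reverse. The regions also passed when the mean was tested against a log2 fold of 1, with limma adjusted p-values between 0.0137 and 0.0164. Leaving out replicate 1, 2 or 4 gave each of them a limma adjusted p between 0.0506 and 0.0648, and leaving out replicate 3 gave at most 0.0490.

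The replicates agreed more closely on where the block lay than on which of its peaks reached a log2 fold of 3. Bases of SRSF6 under a peak whose −log10 p reached 3 numbered 542, 539, 559 and 538 in replicates 1 to 4, and 505 of the 578 such bases were covered in all 4. Bases under an enriched peak numbered 514, 539, 81 and 225, and only 75, from 43458705 to 43458779, were common to all 4. In replicates 3 and 4 much of the block had log2 folds between 2.00 and 2.93. Enriched peaks merged into regions accordingly gave 1 region found in all 4 replicates (43458511 to 43458785), 1 in replicates 1, 2 and 4 (43459032 to 43459180) and 1 in replicates 1 and 2 (43458841 to 43458973).

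Past the first 1500 nt, SRSF6 had 7, 12, 8 and 11 called peaks in replicates 1 to 4, and none reached a −log10 p of 3. Their median log2 fold was −0.00087, 0.0014, −0.45 and −0.81. Within the first 1500 nt the median was 3.65, 3.63, 2.73 and 2.80. The lowest log2 fold there was 2.49, 3.13, 2.14 and 2.00, and the highest past it was 1.11, 1.32, 1.59 and 0.14, so the zones did not overlap in any replicate. The limit of 1500 nt was drawn past the end of the block, so this separation follows in part from that choice. The region with the lowest mean (43460818 to 43460879) had log2 folds of −0.00087, −2.00, −2.81 and −2.00 and did not pass (mean −1.70 ± 1.20, SD, n = 4; limma adjusted p = 0.0736).

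**Figure D3:**
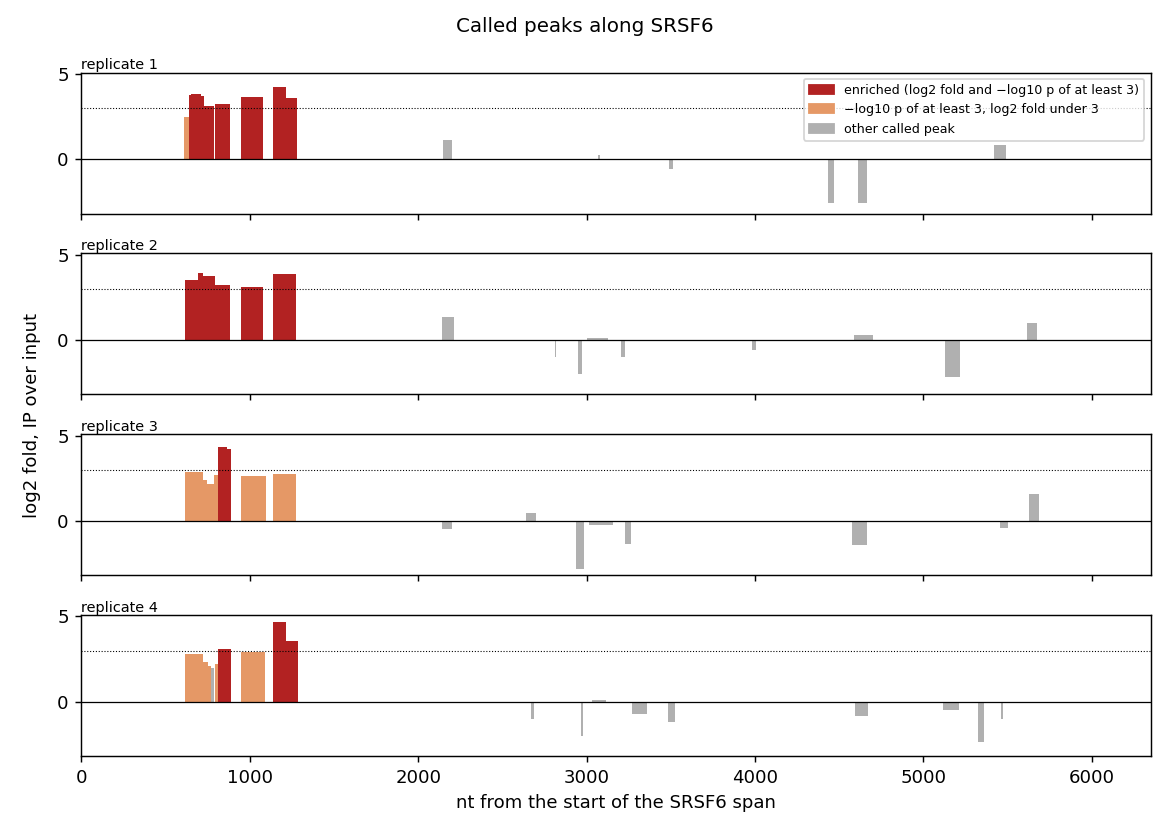
Called peaks along the SRSF6 span in each replicate, by distance from the start of the span (nt) and log2 fold of IP over input; the dotted line marks a log2 fold of 3. The block between 610 and 1284 nt is present in each replicate, and the peaks after it are low.

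SRSF1, also known as ASF/SF2, was among the first SR proteins described and acts in both constitutive and alternative splicing. Its gene spans 18209 nt on the minus strand of chromosome 17, from 57989038 to 58007246. It had 36, 39, 44 and 39 called peaks in replicates 1 to 4, of which 2, 1, 2 and 1 were enriched, all within 324 to 699 nt of the start of the span. The highest −log10 p was 8.79, 5.86, 12.2 and 4.56. A pair of regions there was above 0. The one nearer the start (58006751 to 58006925) had a log2 fold of 3.77, 3.27, 2.70 and 2.52 and a mean of 3.07 ± 0.57 (SD, n = 4; SE 0.31; limma adjusted p = 0.00577). The next (58006547 to 58006709) had 3.66, 2.39, 4.62 and 3.06 and a mean of 3.43 ± 0.94 (SE 0.42; limma adjusted p = 0.00811). Replicates 1 and 3 were highest in one region each, and no replicate was lowest in both.

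By the rule for enriched peaks, SRSF1 had 1 region in 3 replicates (58006547 to 58006655; log2 folds of 3.66, 4.62 and 3.06 in replicates 1, 3 and 4), 1 in 2 replicates and 1 in 1. No base was under an enriched peak in all 4 replicates, and 200 of the 335 bases under a peak whose −log10 p reached 3 were so in all 4. When enriched peaks up to 50 nt apart were merged as well, 1 region from 58006547 to 58006922 was found in all 4 replicates, with log2 folds of 3.77, 3.27, 4.64 and 3.06.

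Further into SRSF1 the folds were small. A region from 58004486 to 58004552 had log2 folds of 1.58, 1.00, 2.17 and 1.00, a mean of 1.44 ± 0.56 (SD, n = 4; limma adjusted p = 0.0294). Downstream of it, a region from 58003955 to 58004018 was lower in IP than in input in each replicate, with −1.00, −1.10, −1.41 and −0.94, a mean of −1.11 ± 0.21 (limma adjusted p = 0.0281, and 0.0518 in a robust fit with trend). The lowest mean, −1.25 ± 1.06 from 57999276 to 57999335, did not pass (limma adjusted p = 0.121). The span overlaps that of LOC101929185, a lncRNA on the plus strand, which held 19 of the 158 SRSF1 peaks and no enriched one.

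**Figure D4:**
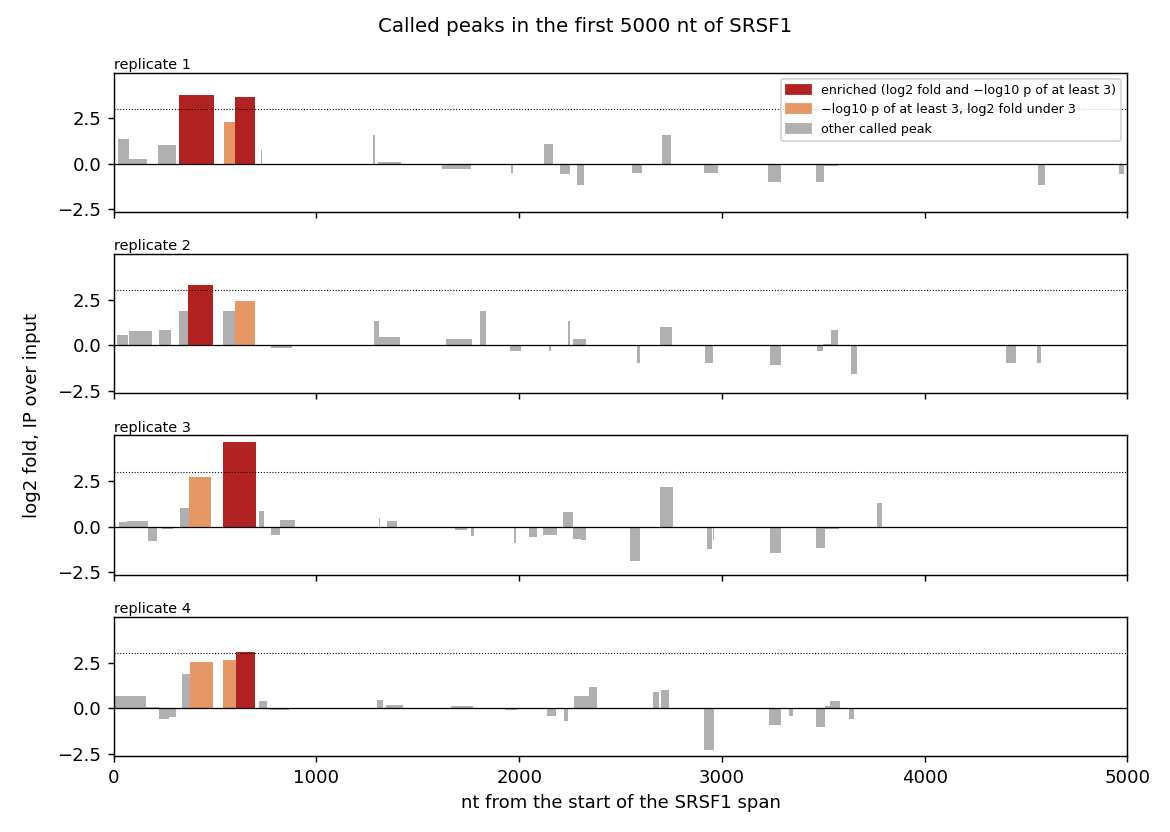
Called peaks in the first 5000 nt of SRSF1 in each replicate, by distance from the start of the span (nt) and log2 fold of IP over input; the dotted line marks a log2 fold of 3. Enriched peaks lie between 324 and 699 nt, and which of the peaks passes differs between replicates.

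The enriched peaks of both genes lay near the start of the span. Of the 10 genes, 9 had peaks in their first 1000 nt, and 12.5% ± 5.71 (SD, n = 4) of those peaks were enriched, a total of 18 peaks from SRSF6 (12 of its 22) and SRSF1 (6 of its 40). In the first 1000 nt of all protein-coding genes of at least 3000 nt the share was 0.628% ± 0.108. Between the first and last 1000 nt the shares were 1.12% ± 1.03 in the 10 genes and 0.818% ± 0.0432 in all genes. In the last 1000 nt they were 0% (none of 80 peaks) and 0.83% ± 0.116. Without SRSF6, the shares were 4.92% ± 2.03 in the first 1000 nt, 0.260% ± 0.521 between and 0% in the last 1000 nt. The difference between these shares was not tested, since the 10 genes were chosen with results of these data known.

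SRSF11 encodes p54, an SR-related splicing factor that interacts with U2AF, and its gene is the longest of the 10, with 47357 nt on the plus strand of chromosome 1. It had 43, 39, 46 and 45 called peaks and a median log2 fold of −0.00087, 0.49, 0.42 and 0.46 in replicates 1 to 4. Of 19 tested regions 5 were above 0, a share near the 21.1% over all regions tested, all with means under 2 and in a pair of clusters. The steadiest region (70250615 to 70250880) had log2 folds of 2.15, 1.72, 1.81 and 1.81, a mean of 1.87 ± 0.19 (SD, n = 4; SE 0.23; limma adjusted p = 0.00815). In the same cluster, 70250365 to 70250468 had 1.81, 1.00, 2.00 and 2.41 (mean 1.81 ± 0.59; limma adjusted p = 0.0178). The third of this cluster, 70249948 to 70250046, had 3.06 in replicate 1 and 1.19, 1.17 and 1.22 in the others (mean 1.66 ± 0.93; limma adjusted p = 0.0458), and did not pass when the mean fold of its peaks was used in each replicate (limma adjusted p = 0.120). Both enriched peaks of SRSF11 were in this region and in replicate 1, with log2 folds of 3.06 and 3.81 and a −log10 p of 4.56 and 3.01.

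The other cluster of SRSF11 lay near the middle of the gene. From 70230835 to 70230961 the log2 folds were 2.13, 2.15, 2.08 and 1.00 (mean 1.84 ± 0.56, SD, n = 4; limma adjusted p = 0.0163), with replicate 4 low. From 70228864 to 70229120 they were 1.14, 2.81, 1.42 and 1.84 (mean 1.80 ± 0.73; limma adjusted p = 0.0241), with replicate 2 high. The lowest mean in the gene, −0.54 ± 1.11 from 70226588 to 70226737, did not pass (limma adjusted p = 0.477). None of the 5 regions passed when limma tested them against a log2 fold of 1, with adjusted p-values of 0.0788 to 0.466.

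TRA2B and TRA2A, the human homologues of the Drosophila splicing regulator transformer-2, had no enriched peak. TRA2B (minus strand of chromosome 3, 23457 nt) had 37, 35, 30 and 31 called peaks and 2 of 20 tested regions above 0, which were neighbours. The region from 185931437 to 185931546 had log2 folds of 2.81, 0.74, 3.001 and 1.58, a mean of 2.03 ± 1.07 (SD, n = 4; limma adjusted p = 0.0348). The region from 185931269 to 185931399 had 1.00, 2.17, 0.68 and 1.32, a mean of 1.29 ± 0.64 (limma adjusted p = 0.0473), and did not pass with the mean fold of its peaks (limma adjusted p = 0.0838). Replicate 2 was lowest in one and highest in the other, and no peak of TRA2B had a −log10 p above 1.67. Its lowest mean, −1.07 ± 0.63 from 185925474 to 185925630, did not pass (limma adjusted p = 0.0788).

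TRA2A (minus strand of chromosome 7, 27202 nt) had 32, 28, 28 and 40 called peaks and 15 tested regions. One region was above 0, from 23521991 to 23522109, with log2 folds of 1.74, 1.22, 0.74 and 1.14 (mean 1.21 ± 0.41, SD, n = 4; limma adjusted p = 0.0327). One was below 0, from 23523966 to 23524041, with −2.32, −1.22, −0.81 and −1.59 (mean −1.48 ± 0.64; limma adjusted p = 0.0324). All 4 replicates had the same sign in each of these regions, and the highest −log10 p in the gene was 1.72.

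SRSF4, or SRp75, is a classical SR protein with a long arginine- and serine-rich region, and its gene had regions in both directions. It spans 34158 nt on the minus strand of chromosome 1 and had 39, 39, 35 and 37 called peaks, none of them enriched. Its median log2 fold was negative in each replicate, at −0.26, −0.19, −0.81 and −0.59. A region near the end of the gene (29148680 to 29149025) was above 0, with 1.72, 1.70, 0.74 and 1.81 (mean 1.49 ± 0.50, SD, n = 4; limma adjusted p = 0.0238). It did not pass with the mean fold of its peaks (limma adjusted p = 0.0827). It held the single SRSF4 peak whose −log10 p reached 3, at 4.10 in replicate 4.

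The lowest mean of the 128 regions was also in SRSF4. From 29177774 to 29177876 the log2 folds were −3.81, −3.58, −1.32 and −3.32, a mean of −3.01 ± 1.14 (SD, n = 4; SE 0.49; limma adjusted p = 0.0151), with replicate 3 the least negative. From 29181058 to 29181136 they were −1.00, −2.00, −3.46 and −1.81, a mean of −2.07 ± 1.02 (SE 0.45; limma adjusted p = 0.0307). Both regions lie in the part of SRSF4 that overlaps the span of MECR, which encodes a mitochondrial enzyme of fatty acid synthesis and is on the same strand. MECR shares 83 of the 150 SRSF4 peaks, so reads of the 2 genes cannot be told apart there.

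**Figure D5:**
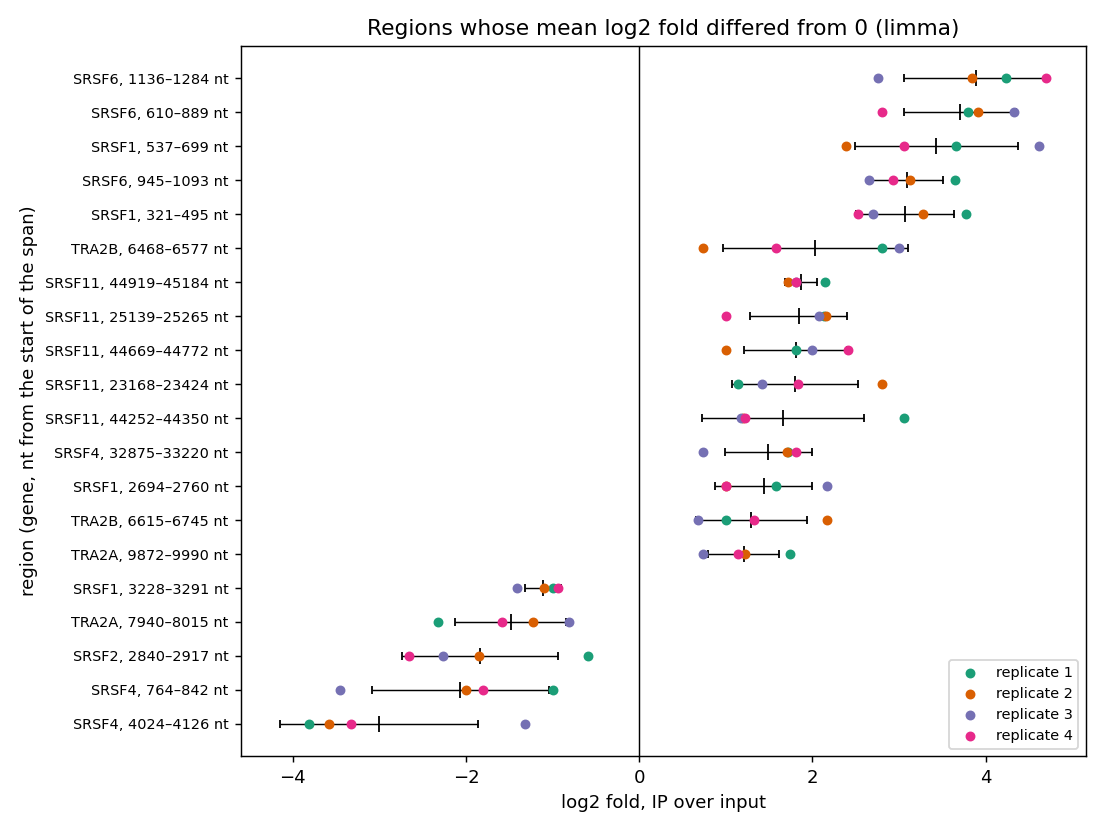
Log2 fold of IP over input in each replicate for the 20 regions of the SR protein and TRA2 genes whose mean differed from 0 (limma, adjusted p of at most 0.05), with mean and SD (n = 4). The 5 regions of SRSF6 and SRSF1 near the start of the span have means between 3.07 and 3.88, and the 10 others above 0 have means between 1.21 and 2.03.

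SRSF2, or SC35, binds exonic enhancers and is a marker of nuclear speckles. Its gene, 3297 nt on chromosome 17, had 11, 8, 12 and 11 called peaks on the minus strand, and none reached a −log10 p of 3. Of 5 tested regions, 1 was below 0, from 76734494 to 76734571, with log2 folds of −0.59, −1.85, −2.26 and −2.66 (mean −1.84 ± 0.90, SD, n = 4; limma adjusted p = 0.0323). Replicate 1 was the least negative, and the highest mean in the gene was 0.21 ± 0.86 (limma adjusted p = 0.748). The span overlaps MFSD11 on the plus strand, which held 14 of its 42 peaks, and contains MIR636, which held 1.

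SRSF3, SRSF5 and SRSF7 had neither an enriched peak nor a region that differed from 0. SRSF3 and SRSF7 also serve as adaptors for mRNA export. SRSF3 had 15, 16, 18 and 13 called peaks, with region means from −1.11 ± 1.44 (limma adjusted p = 0.250) to 0.57 ± 0.38 (SD, n = 4; limma adjusted p = 0.191). The higher of these (36594366 to 36594483) lies at the start of the span and was above 0 in each replicate, with 0.35, 0.22, 0.62 and 1.08. SRSF5, or SRp40, had 15, 18, 15 and 13 called peaks, with means from −0.67 ± 0.53 (limma adjusted p = 0.177) to 0.45 ± 0.74 (limma adjusted p = 0.423). SRSF7, or 9G8, had 13, 14, 15 and 13 called peaks, with means from −1.87 ± 1.35 (limma adjusted p = 0.0746) to 1.07 ± 1.21 (limma adjusted p = 0.203). The lowest SRSF7 region (38745031 to 38745084) was negative in each replicate, at −1.74, −1.58, −0.46 and −3.70, and its spread kept it from passing. In these 3 genes the highest −log10 p of any peak was 2.38, in SRSF7 and replicate 4.

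Of all 10 genes, 3 had an enriched peak, 2 (SRSF6 and SRSF1) had a region enriched in at least 3 replicates and 1 had a region enriched in all 4. Over the 12922 protein-coding genes with a called peak these shares were 8.51%, 3.05% and 2.13%. Enriched peaks of the 10 genes merged into 8 regions, of which 1 was found in all 4 replicates and 3 in at least 3, and over the 3371 regions of the whole lists 16.4% and 27% were. The region with the highest mean log2 fold among those in at least 3 replicates was the third region of SRSF6, and its profile over the 4 replicates was compared with the best such region of each of 392 other genes. The nearest by Euclidean distance were regions in TSPAN15 (distance 0.42; log2 folds of 4.00, 3.91, 2.91 and 4.39), HERPUD1 (0.42; 4.00, 3.91, 2.42 and 4.75) and ACAD10 (0.56; 4.46, 4.09, 3.17 and 4.52).

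Other genes of the pathway were taken from a list of 22. Of the 4 remaining SR proteins, SRSF9 had 3 tested regions and SRSF10 had 9, with no call in either direction, and SRSF8 and SRSF12 had no region called in all 4 replicates to test. SRSF10 had 1 enriched peak in the 4 libraries together. Of the 6 kinases that phosphorylate SR proteins, SRPK1, SRPK2, CLK1, CLK2 and CLK3 had 8 of 51 regions above 0 and 1 below, and CLK4 had none to test. The 12 SR-related proteins had 33 of 158 above 0 and 1 below. Together this was 18.6% above and 0.905% below, and the regions had a median mean log2 fold of 0.49. Over all regions tested 21.1% were above and 1.81% below, with a median of 0.50. U2AF2, the large subunit of the factor that recognises the polypyrimidine tract, had 4 regions enriched in at least 3 replicates. Its strongest (chromosome 19, 55670415 to 55670556, plus strand) had log2 folds of 6.16, 6.23, 5.90 and 5.13, above any value in the 10 genes. SON, a large speckle protein, had 1 region in 3 replicates (chromosome 21, 33569656 to 33569858, plus strand), with 4.57, 4.49 and 3.77 in replicates 1, 2 and 4.

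As other families of splicing regulators, the 3 PTBP genes and 15 hnRNP genes were measured in the same way. The share of enriched peaks was 5.82% ± 1.94 (SD, n = 4) in PTBP genes and 0.173% ± 0.115 in hnRNP genes, and 2.62% ± 1.48 in the SR and TRA2 genes lay between them. These shares rested on few genes. Without SRSF6 the SR and TRA2 genes fell from 6.75 to 2 enriched peaks per library, and 7 of the 10 genes had none. PTBP1 had 21 enriched peaks in the 4 libraries together, PTBP2 had 8 and PTBP3 had 0. Of the PTBP regions 16 of 32 were above 0 and 1 below, and of the hnRNP regions 21 of 184 (11.4%) were above 0 and 10 (5.43%) below. Over all regions tested the shares were 21.1% and 1.81%. The differences between these families were not tested.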

How the data were processed

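Peak lists of 4 IP libraries were used, each made by the authors against the input of the same number. Per the submitters' processing notes, UMI-tools 1.1.1, cutadapt 3.2 and STAR 2.7.7a were used on hg38 (GRCh38.p13). The peak caller, its test and the scaling are not given in the sources used here. The deposited −log10 p and log2 fold were identified from their values and used unchanged. Read counts per peak were not used, so the depth behind a value is unknown and counting intervals could not be had. Gene spans are RefSeq GRCh38.p14. Strand came from the RefSeq promoter table for 8 genes and, for SRSF2 and TRA2A, from the strand with more called peaks. Coordinates are 1-based. limma 3.58.1 (R 4.3.3) fitted an intercept to all 49493 regions (eBayes, no trend, two-sided) with Benjamini-Hochberg adjustment and a threshold of 0.05. The code was also run on simulated normally distributed values. Those lack the many shared folds of these peaks, so that run does not bear on the calls. Other steps used Python 3.11.15 and pandas 2.3.3. Named by rule are the 10 genes, with their regions below 0 by limma, enriched in at least 3 replicates or of highest and lowest mean, pathway genes with a region enriched in at least 3 replicates, and the 3 nearest profiles. The other regions above 0 were named after their values were seen. The limits of 3 are customary for eCLIP. The limits of 0.5 and −0.5, the 1500 nt zone of SRSF6, the position classes and the base counts were chosen after seeing the values. The genes and lists were chosen with earlier results of these data known. Exons, introns and base sequence are not analysed here.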

Additional observations from a re-analysis of the deposited data

Results flagged for a closer look

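With 48 groups of 4 replicate values examined, 5 had a replicate whose distance from the nearest other exceeded Dixon's limit as a share of the range, and chance alone flags about 1 group in 20. In SRSF11, replicate 1 had 2 enriched peaks and the others 0. Such a count pattern is always flagged, so the rate of 1 in 20 does not apply to it. Those 2 peaks lie in the SRSF11 region from 70249948, which was flagged too, so these flags are not separate. The median log2 fold of SRSF11 was −0.00087 in replicate 1 and between 0.42 and 0.49 in the others. In the SRSF11 region from 70249948, replicate 1 had a log2 fold of 3.06 and the others between 1.17 and 1.22. In the SRSF11 region from 70230835, replicate 4 had 1.00 and the others between 2.08 and 2.15. In the SRSF4 region from 29148680, replicate 3 had 0.74 and the others between 1.70 and 1.81.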

How the results depend on the processing

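No result reversed its direction under the alternatives, and counts were taken as changed beyond 1.5 times. The number of called peaks stayed within that margin. The mean of the replicate medians of the log2 fold stayed negative and moved by less than the spread between replicates. It went from −0.09 to −0.13 without SRSF6. With one replicate left out it was between −0.12 and −0.06, the last of these without replicate 1. In replicates 2 and 4 the median itself was 0.0014 and −0.00050, the same as over all peaks. Enriched peaks per library rose from 6.75 to 12.5 when the limit on the log2 fold was 1 and fell to 2 without SRSF6, a setting chosen after seeing the data. Leaving out one replicate gave 5 to 7.67. The matched limit of 3.1 on the −log10 p of replicates 2 and 3, also chosen afterwards, gave 6.75. Regions enriched in all 4 replicates went from 1 to 5 at a log2 fold of at least 1, to 2 with gaps of up to 50 nt merged and to 8 when any called peak counted, and were 1 to 2 in the remaining 3 replicates.

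The limma count above 0 fell from 15 to 5 against a log2 fold of 1, and was 0 to 5 with one replicate left out, where 19 to 25 regions had an unadjusted p under 0.05. The count below 0 went from 5 to 0 against a log2 fold of 1 (3 at an unadjusted p under 0.05) and to 9 with a robust trend. It was 0 to 2 with one replicate left out. Among regions that reached a −log10 p of 3 it was 0 (also 0 unadjusted), and 0 over all 3356 regions kept. The 5 regions below 0 had a −log10 p of 0 in each replicate, so that filter could not keep them and does not bear on them. The fits with one replicate left out had fewer degrees of freedom and more regions to test, 62378 to 64176. Over all regions there were 0 calls without replicate 1 or 4. Above 0 there were 1271 without replicate 2 and 2470 without replicate 3. Why the counts differed between these fits was not tested, nor were causes of the other changes. No paired analysis was possible because the fold of every peak was deposited with its own input library already set against it.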
